A study of Mus musculus with 22 samples.

Results

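Germinal center B cells that had switched to IgG1 were compared with germinal center B cells of the same libraries that had switched to IgG2b, IgG2c or IgG3. A cell was used when 500 or more genes were detected in it, mitochondrial transcripts made up no more than 10%, and its barcode carried a productive immunoglobulin heavy chain in the receptor library made from the same cells. The constant gene of the heavy-chain contig with the most unique molecular identifiers (UMIs, each counting 1 captured transcript) set the subclass. By this rule 792 cells were IgG1 and 1808 were IgG2b (741 cells), IgG2c (614) or IgG3 (453), together 2600 of the 4941 filtered cells with a productive heavy chain (52.6%) and of 8873 cells in all.

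The mice were C57BL/6 males, 8 weeks old by the labels, and every mouse had received 100 µg of antigen in alum with 1 µg of lipopolysaccharide by intraperitoneal injection. In the libraries NP 1 and NP 2 the antigen was NP-KLH, a hapten on a carrier protein, and the sort, on day 13, took NP-binding germinal center B cells of the spleen. In the library OVA 1 the antigen was ovalbumin and the sort took all germinal center B cells, on a day not given in the sources used here. No label says that libraries came from separate animals or how many animals were pooled, so p-values measure the spread between 3 libraries, which may be technical. Because the single OVA library also had its own gate, antigen and gate cannot be told apart.

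Class switching replaces the constant region of the antibody heavy chain by DNA recombination and leaves the antigen-binding part in place. In mice, IL-4 acting through STAT6 directs switching to IgG1, interferon gamma and the transcription factor T-bet favour IgG2c, and TGF-beta has been tied to IgG2b. The constant genes lie along the chromosome in the order mu, delta, gamma 3, gamma 1, gamma 2b and gamma 2c, so a cell can switch again only to a gene further along. Cells of 1 clone share the rearranged V, D and J segments whatever their subclass, and the junction, called CDR3, works as a natural barcode.

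Clones that held both IgG1 and other IgG cells were common. Of 318 clones with at least 2 IgG cells, 67 (21.1%) held both, 23 in NP 1, 23 in NP 2 and 21 in OVA 1. They contained 138 IgG1 cells with 60 IgG2b, 50 IgG2c and 71 IgG3 cells. The CDR3 nucleotide sequences of the 2 largest mixed clones of each library show 1 heavy-chain sequence read with several constant genes. Clones were defined by the heavy chain alone, so cells of different origin with the same heavy-chain junction count as 1 clone: the IGHV14-3 clone of NP 1 held cells with kappa and cells with lambda light chains, the other 5 clones shown held 1 light-chain type, and 6 rearrangements occurred in 2 libraries. Capitals mark the fourth codon of the CDR3, which is a tyrosine codon (TAT or TAC) in the canonical antibody to NP.
NP 1 clone with IGHV14-3 and IGHJ1: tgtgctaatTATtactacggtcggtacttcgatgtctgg
NP 1 clone with IGHV1-72 and IGHJ2: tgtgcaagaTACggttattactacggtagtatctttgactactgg
NP 2 clone with IGHV1-72 and IGHJ2: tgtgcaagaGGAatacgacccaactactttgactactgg
NP 2 clone with IGHV1-72 and IGHJ1: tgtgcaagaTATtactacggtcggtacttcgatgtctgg
OVA 1 clone with IGHV2-5 and IGHJ4: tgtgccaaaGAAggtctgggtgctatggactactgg
OVA 1 clone with IGHV1-76 and IGHJ1: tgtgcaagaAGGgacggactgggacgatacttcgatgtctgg
The IGHV14-3 clone of NP 1 held 6 IgG1, 2 IgG2c and 4 IgG3 cells. Its IGHV1-72 clone held 1 IgG1, 1 IgG2b and 8 IgG2c cells. The GGA clone of NP 2 held 4 IgG1 and 8 IgG3 cells, and the TAT clone held 4 IgG1 and 4 IgG2c cells beside 22 IgM cells. In OVA 1 the IGHV2-5 clone held 2 IgG1, 16 IgG2b and 10 IgG2c cells beside 14 IgM cells, and the IGHV1-76 clone held 2 IgG1 and 10 IgG3 cells. The IGHV14-3 clone of NP 1 and the TAT clone of NP 2 ended in the same bases after the tyrosine codon although their V genes differed.

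IgG1 took a different share of the IgG cells in each library. It made up 28.6% (exact Clopper-Pearson 95% interval 25.7 to 31.7) of 902 IgG cells in NP 1, 21.0% (18.2 to 23.9) of 806 in NP 2 and 40.9% (37.7 to 44.2) of 892 in OVA 1. The 3 intervals do not overlap. They treat cells as independent, which cells of 1 clone are not, so they are too narrow. Whether the libraries differed beyond this was not tested. IgG3 ran the other way, from 24.4% and 23.3% in the NP libraries to 5.04% (45 cells) in OVA 1. Intervals here cover counting error only.

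The subclass calls matched the gene expression data of the same cells in the main, least closely for IgG2c. Of the UMIs that fell on the constant genes Ighm, Ighg1, Ighg2b, Ighg2c and Ighg3, Ighg1 took 81.7%, 81.9% and 82.4% in cells called IgG1 in NP 1, NP 2 and OVA 1. In cells called IgG1, Ighm took 11.8%, 11.5% and 12.8%. In cells called IgG2c, Ighg2c took only 58.0%, 62.2% and 55.5%, and Ighm 24.5%, 20.2% and 23.6%. In those of NP 1 Ighg1 took 5.75%, and in those of OVA 1 Ighg2b took 15.8%. The germinal center markers Fas, Bcl6 and S1pr2 were present in both arms of every library. The median IgG1 cell had 6801.5, 9687 and 8206 UMIs in NP 1, NP 2 and OVA 1, and the median other IgG cell 7687, 8864 and 8621. Across libraries 31 barcodes recurred, 20 of the cells used here carried such a barcode, and 2 of these barcodes fell on cells of the arms in 2 libraries.

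For expression, the UMIs of all cells of 1 library and 1 arm were summed, giving 6 sums. They held 1689197 to 6096455 UMIs without immunoglobulin genes, and edgeR's quasi-likelihood test compared the arms within libraries. Immunoglobulin genes were left out, since they define the arms. Of 9849 genes, 93 passed an adjusted p of 0.05 (0.944%), of which 42 were higher (0.426%) and 51 lower (0.518%) in IgG1 cells. The differences were small: the median size among the 93 was 0.39 on the log2 scale, and 62 were under 0.5. Direction was the same in all 3 libraries for 86 of the 93 and against each of the 3 other subclasses for 89, but the arms did not overlap across libraries for only 29. The 93 were selected on these same sums, and the subclass sums hold the same cells, so this agreement in direction is no separate support. Shares over all genes are not given here. On simulated sums of this size the test recovered 25% of genes changed by 0.5 on the log2 scale and 79% of those changed by 1, with 3 and 6 false calls. The simulation set 1 fixed dispersion for every gene, not estimated from these data. Small differences were often missed in it, and the rates in the real sums were not measured. At an unadjusted p of 0.05, 949 genes (9.64%) differed.

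The count of 93 depended on the analysis. DESeq2 called 9 genes (adjusted p undefined for 7829 of the 9849), all among the 93. Without NP 1, NP 2 or OVA 1 it was 53, 56 or 46, and 13 of the 93 were called under each of these. Those 13, several of them named because of this after their values were seen, were Parm1, Slpi, Emid1, Pag1, Lmo2, Fcer2a and Gsn, higher in IgG1 cells, and Csf2rb, Hist1h2ae, Hist1h1b, Hist1h1e, Rrm2 and Stmn1, lower.

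Parm1, which encodes a mucin-like membrane protein, showed the clearest difference. Its level was 36.7, 44.0 and 46.7 CPM (UMIs per gene scaled to a common, TMM-normalised library size) in the IgG1 sums of NP 1, NP 2 and OVA 1 and 19.6, 21.6 and 22 CPM in the other IgG sums. All 3 IgG1 sums lay above all 3 others, at about the same distance in each library. The log2 fold was 1.02 ± 0.12 (SE, n = 3 libraries; edgeR adjusted p = 4.36e-11), and 14 of 16 alternative analyses called it. The 301 UMIs in IgG1 cells did not come from 1 family of cells, since the largest clone gave 3.65% of them. The gene lies on chromosome 5 (GRCm38.p6, 91517700 to 91624011).

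Slpi, a secreted inhibitor of serine proteases from leukocytes, was at 120, 141 and 187 CPM in IgG1 cells and 98.6, 86.0 and 130 CPM in the other IgG cells of NP 1, NP 2 and OVA 1. IgG1 was higher within every library, although the OVA value of the other cells exceeded the NP 1 value of IgG1 cells. The log2 fold was 0.50 ± 0.07 (SE, n = 3; edgeR adjusted p = 1.36e-08). Pag1, a raft adaptor that recruits the inhibitory kinase Csk, was at 109, 119 and 134 CPM against 83.5, 90.1 and 104 CPM, with no overlap (log2 fold 0.39 ± 0.07, edgeR adjusted p = 0.000105). Lmo2, a transcriptional adaptor typical of germinal center B cells, was at 113, 136 and 117 CPM against 80.5, 106 and 93.5 CPM, again with no overlap (log2 fold 0.38 ± 0.07, edgeR adjusted p = 0.000134). Bmyc, a relative of Myc that lacks its DNA-binding end, was at 85.1, 120 and 108 CPM against 66.0, 95.6 and 67.1 CPM. Its log2 fold of 0.47 ± 0.08 (edgeR adjusted p = 3.72e-06) was 0.34 without OVA 1, where it missed the threshold (edgeR adjusted p = 0.15). Pag1 and Bmyc were named after their values were seen.

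**Figure D1:**
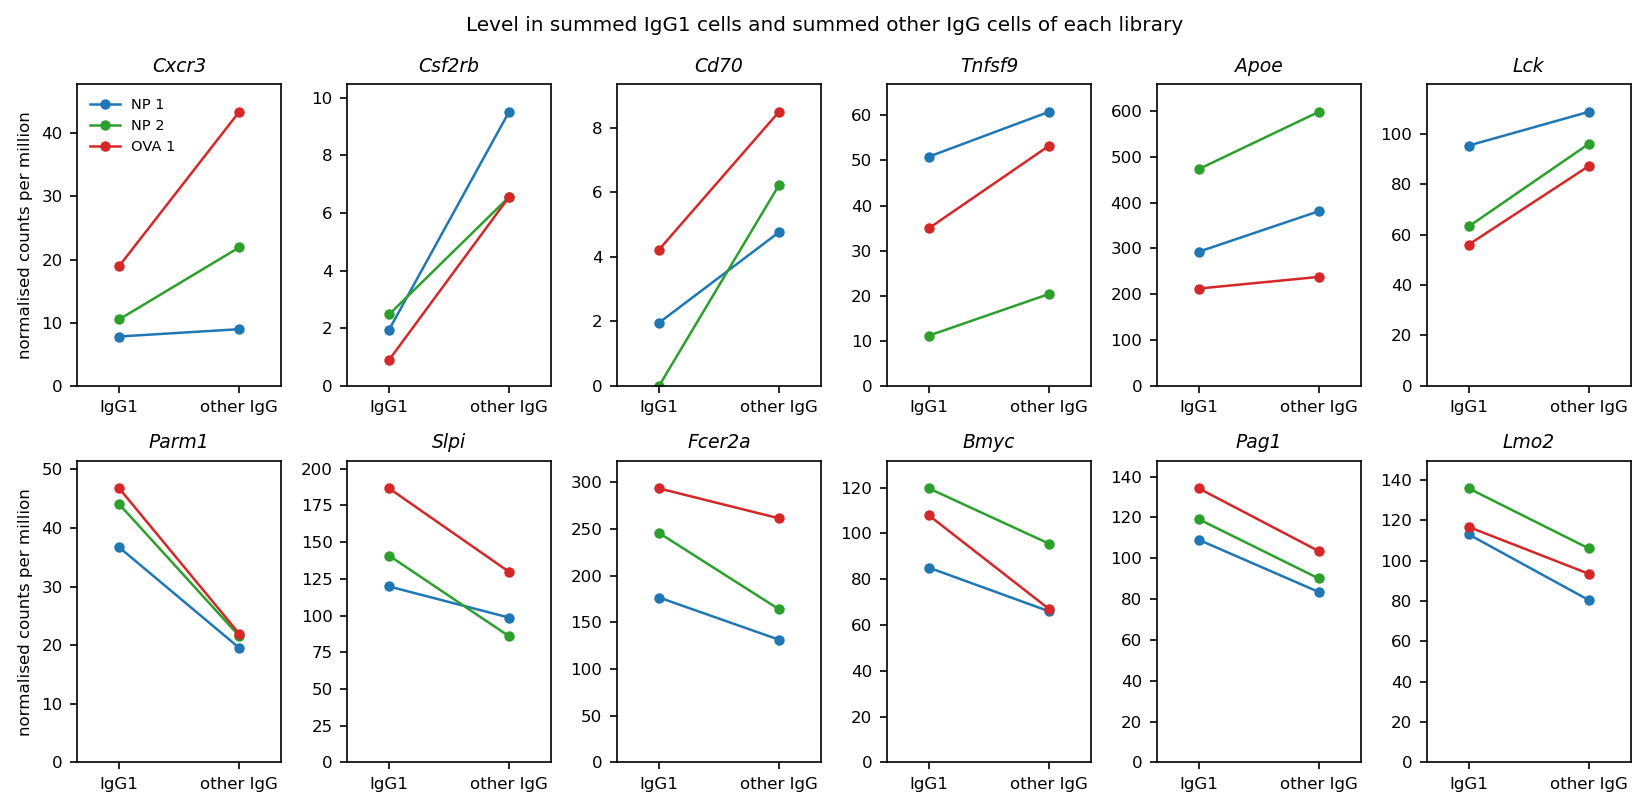
Level of 12 genes in CPM (linear vertical axis from 0) in summed IgG1 cells (left) and summed other IgG cells (right), 1 line per library, with no error bar because each point is 1 sum. The upper row holds genes lower in IgG1 cells, such as Cxcr3 at 19.0 against 43.4 in OVA 1, and the lower row genes higher in IgG1 cells, such as Parm1 at 36.7 to 46.7 against 19.6 to 22.

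The genes of the signals that direct switching were described first. Among 15 tested genes of an IL-4 and STAT6 response list, 1 rose and 0 fell in IgG1 cells (6.67%, beside 0.426% higher over all genes). The median log2 fold was 0.16, beside 0.01 over all genes tested. The riser was Fcer2a, which encodes CD23, the low-affinity IgE receptor that IL-4 induces on B cells. Fcer2a was at 176, 246 and 293 CPM in IgG1 cells and 131, 164 and 261 CPM in other IgG cells. IgG1 was higher within each library, most in the NP libraries, and the groups overlapped across libraries. The log2 fold was 0.36 ± 0.06 (SE, n = 3; edgeR adjusted p = 6.00e-06), which is 1.28-fold. The receptor chain Il4ra (66.0, 75.7 and 88.3 CPM against 72.8, 68.0 and 77.5 CPM), the factor Stat6 itself and the feedback inhibitor Socs1 did not pass the test, with log2 folds of 0.08, 0.15 and 0.17.

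The promoter of Fcer2a is shown because the gene is a textbook target of STAT6, which binds TTC and GAA separated by 4 bases. RefSeq gives Fcer2a 3 start sites, and 1 of the 3 windows (250 bases before to 50 after a start) holds such a match, 168 bases before the start. The stretch below lies on the minus strand at chr8:3691000-3691049 of GRCm38.p6, with the match in capitals.
Fcer2a upstream stretch: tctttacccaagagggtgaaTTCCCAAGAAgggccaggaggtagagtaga
The pattern, which reads the same on both strands, occurs in 6.95% of all 32851 RefSeq promoter windows, in 4 of 46 windows of the genes higher in IgG1 cells (8.70%) and in 5 of 42 windows of the lower genes (11.9%). A match of letters is not a binding site, and nothing about the factor follows from it.

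Of 25 tested genes of the interferon gamma and T-bet list, 0 rose and 1 fell (4%, beside 0.518% lower over all genes), with a median log2 fold of 0.12. The gene that fell was Cxcr3, the receptor for chemokines that interferon gamma induces, itself a T-bet target. Cxcr3 was at 7.82, 10.5 and 19.0 CPM in IgG1 cells and at 8.98, 21.9 and 43.4 CPM in other IgG cells of NP 1, NP 2 and OVA 1. NP 1 showed almost no difference, NP 2 and OVA 1 showed clear ones, and the groups overlapped. The log2 fold was -1.01 ± 0.17 (SE, n = 3; edgeR adjusted p = 3.72e-06), from 96 UMIs in IgG1 cells and 403 in the others. Without OVA 1 it was -0.70 and missed the threshold (edgeR adjusted p = 0.33). Among IgG2b, IgG2c and IgG3 cells the level was lowest in NP 1, at 10.2, 8.18 and 8.59 CPM. In NP 2 it was 18.8, 28.5 and 16.9 CPM, highest in IgG2c cells. In OVA 1 it was 44.7, 30.1 and 81.7 CPM, lowest in IgG2c cells and highest in IgG3 cells, of which OVA 1 held only 45.

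T-bet itself, Tbx21, was at 17.1, 8.68 and 13.0 CPM in IgG1 cells and 13.2, 14.5 and 24.3 CPM in the others. NP 1 ran opposite to the other libraries, and the log2 fold of -0.47 ± 0.18 did not pass (edgeR adjusted p = 0.263). Ifngr1, a receptor chain, and Irf1, a factor downstream of it, had log2 folds of 0.22 and 0.00, neither past the test. Of 19 tested type I interferon response genes, 2 rose and 0 fell (10.5%, beside 0.426% higher over all genes; median 0.13). Ifi203, of the interferon-inducible p200 family, was at 8.80, 16.1 and 21.4 CPM against 3.70, 6.73 and 14.3 CPM (log2 fold 0.88 ± 0.21, edgeR adjusted p = 0.00601), and was not called without NP 1 (log2 fold 0.79) or without NP 2 (0.73). Ifi27l2a had a log2 fold of 0.24 ± 0.06 and was not called without NP 1 (0.25) or OVA 1 (0.09).

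For IgG2b, the TGF-beta and retinoic acid list had 0 of 16 tested genes past edgeR's adjusted threshold (median log2 fold 0.02). It had 0 past that of DESeq2, which left the adjusted p undefined for most genes. At an unadjusted p of 0.05, 2 of the 16 were higher, beside 4.90% higher over all genes. The receptor chains Tgfbr1 and Tgfbr2 had log2 folds of -0.09 ± 0.10 and 0.02 ± 0.08. Runx3, a factor downstream of TGF-beta, was at 20.5, 12.4 and 22.9 CPM against 8.98, 12.6 and 17.0 CPM (log2 fold 0.55 ± 0.17, edgeR adjusted p = 0.107), with no difference in NP 2. Among 10 tested IL-21 and STAT3 response genes 0 rose and 1 fell (10%, beside 0.518% lower over all genes). The gene that fell was the kinase gene Pim1 (log2 fold -0.23 ± 0.06). Pim1 kept its sign but was not called without NP 1 (-0.17), NP 2 (-0.27) or OVA 1 (-0.28). Of 39 tested genes of the switching and hypermutation machinery 0 rose and 1 fell (2.56%, beside 0.518% lower over all genes). This was the histone variant gene H2afx, whose protein is phosphorylated at DNA breaks (log2 fold -0.25 ± 0.05). H2afx was not called without NP 1 (-0.24).

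**Figure D2:**
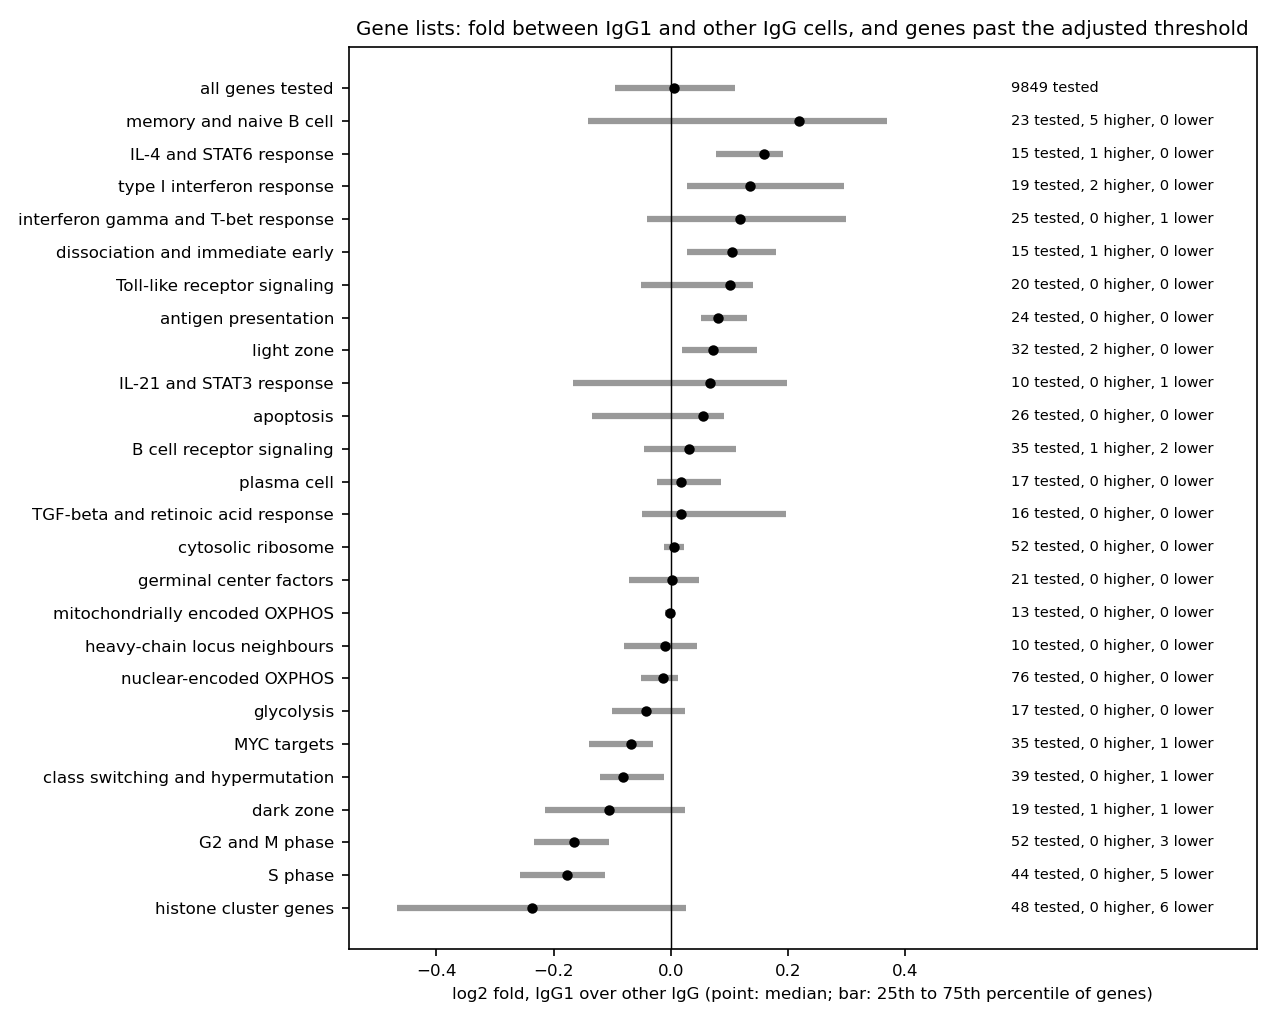
Median (point) and 25th to 75th percentile (bar) of the log2 fold of IgG1 over other IgG cells for each gene list with at least 10 genes tested, with the number of genes past edgeR's adjusted threshold printed at the right. Histone genes and the cell cycle lists lie lowest, with medians of -0.24 (histones), -0.18 (S phase) and -0.17 (G2 and M phase). The memory and naive list lies highest at 0.22 (0.04 without OVA 1), and all genes tested lie at 0.01.

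Some genes of cell division fell in IgG1 cells, while most did not pass the test. Of 44 tested S phase genes 0 rose and 5 fell (11.4%, median log2 fold -0.18). Of 52 tested G2 and M phase genes 0 rose and 3 fell (5.77%, median -0.17), beside 0.518% lower over all genes. At an unadjusted p of 0.05 the counts were 21 and 22 lower and 0 higher, beside 4.73% lower and 4.90% higher over all genes. Together with the histone clusters, these lists gave 14 of the 51 genes called lower. Against IgG2b, IgG2c and IgG3 alone, the S phase median was -0.19, -0.21 and 0.004, so the list was not lower against IgG3. The G2 and M median was -0.16, -0.18 and -0.15 in the same order. Summed levels of lists were scaled to total UMIs without immunoglobulin genes and without TMM factors. The summed level of the S phase list was 5758, 5156 and 4460 CPM in IgG1 cells and 5970, 5511 and 5500 CPM in the others. That of the G2 and M list was 6000, 5528 and 5210 CPM against 6719, 6198 and 5653 CPM. Fewer dividing cells and less of these transcripts per dividing cell cannot be told apart in such sums.

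Rrm2 and Rrm1, the subunits of ribonucleotide reductase, fell; Rrm1 was named after its values were seen. Rrm2 was at 226, 149 and 147 CPM against 231, 242 and 210 CPM, nearly equal in NP 1 and lower in NP 2 and OVA 1 (log2 fold -0.39 ± 0.06, edgeR adjusted p = 3.19e-06). Rrm1 was at 136, 128 and 114 CPM against 168, 157 and 149 CPM, with no overlap between the arms (log2 fold -0.33 ± 0.07, edgeR adjusted p = 0.00088). Tyms, the thymidylate synthase gene, had a log2 fold of -0.41 ± 0.09, and the cohesion factor Dscc1 one of -0.62 ± 0.15. Without OVA 1, Rrm1 (-0.30), Tyms (-0.22) and Dscc1 (-0.46) were not called, and without NP 2, Dscc1 (-0.53) was not.

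Of the G2 and M list, Top2a, the topoisomerase that untangles chromosomes, was at 300, 215 and 232 CPM against 315, 288 and 276 CPM (log2 fold -0.24 ± 0.06, edgeR adjusted p = 0.00712). Top2a was not called without NP 2 (-0.17) or OVA 1 (-0.23). The mitotic genes Cdca8 and Nusap1 had log2 folds of -0.28 ± 0.07 and -0.36 ± 0.09, and both arms were separate across libraries for each. Cdca8 was called without NP 2 (-0.34) and not without NP 1 (-0.20) or OVA 1 (-0.32), and Nusap1 was not called in any of these settings (-0.42, -0.30 and -0.37 without NP 1, NP 2 and OVA 1). Mki67, the proliferation marker, was at 332, 321 and 163 CPM against 372, 342 and 205 CPM, lower in every library, and did not pass (log2 fold -0.19 ± 0.06, edgeR adjusted p = 0.0606).

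Histone genes, chosen as a group after their values were seen, gave 0 genes higher and 6 lower among 48 tested (12.5%, beside 0.518% lower over all genes; median log2 fold -0.24). Hist1h1b, a linker histone gene, was at 65.0, 90.5 and 96.2 CPM against 90.4, 137 and 126 CPM (log2 fold -0.47 ± 0.08, edgeR adjusted p = 3.72e-06). Hist1h2ae, a core histone gene, was at 51.3, 61.4 and 119 CPM against 70.8, 98.7 and 157 CPM (log2 fold -0.48 ± 0.08). Each was lower in IgG1 cells within every library, with overlap across libraries. These genes have many near-identical copies, so the share of reads each received is uncertain.

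When only cells at or below their library's median share of G2 and M transcripts were kept, 3 genes were called, all 3 of them higher in IgG1 cells and all 3 among the 93. Of the 93, 89 could be tested in those cells and 83 had the same direction. The median of the histone genes was then 0.27, while that of the S phase list was -0.12 and that of the G2 and M list, on which the cells had been selected, -0.09. The IL-4 and STAT6 list had a median of 0.03 in those cells and the interferon gamma and T-bet list one of 0.15. The median share of G2 and M transcripts per cell was 0.259%, 0.243% and 0.178% in IgG1 cells and 0.317%, 0.234% and 0.201% in other IgG cells, so NP 2 ran opposite to the others.

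Other genes called lower included those of a receptor chain and of ligands. Csf2rb, the shared signalling chain of the receptors for IL-3, IL-5 and GM-CSF, was at 1.96, 2.48 and 0.904 CPM in IgG1 cells and 9.51, 6.56 and 6.56 CPM in other IgG cells. Every IgG1 sum lay below every other sum. The log2 fold was -2.19 ± 0.40 (SE, n = 3; edgeR adjusted p = 4.45e-05), but it rests on 11 UMIs in IgG1 cells against 126, and Csf2rb has a near-identical neighbouring copy, so its counts are uncertain. Cd70, the ligand of CD27, was at 1.96, 0 and 4.22 CPM against 4.76, 6.21 and 8.48 CPM, again without overlap and from few UMIs (18 against 107). Its log2 fold of -1.46 ± 0.37 (edgeR adjusted p = 0.0153) missed the threshold without NP 1 (-1.52), NP 2 (-1.08) or OVA 1 (-2.29). Tnfsf9, the ligand of the costimulatory receptor 4-1BB, was at 50.9, 11.2 and 35 CPM against 60.8, 20.4 and 53.2 CPM, lower within each library (log2 fold -0.48 ± 0.11, edgeR adjusted p = 0.00654; -0.39 and not called without OVA 1).

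Among 35 tested genes of B cell receptor signalling, 1 rose and 2 fell (8.57%, beside 0.944% called over all genes; median 0.03). Nfatc1, a calcium-driven factor, fell, with the difference in the NP libraries and not in OVA 1, at 83.1, 79.4 and 51.2 CPM against 115, 113 and 50.9 CPM (log2 fold -0.34 ± 0.08). Cd72, an inhibitory coreceptor, had a log2 fold of -0.29 ± 0.07. Nfatc1 was not called without NP 1 (-0.27) or NP 2 (-0.27), and Cd72 not without NP 2 (-0.23) or OVA 1 (-0.23).

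Lck, a Src-family kinase best known from T cells and listed here among T cell markers, fell, at 95.3, 63.3 and 56.1 CPM against 109, 96.0 and 87.2 CPM (log2 fold -0.46 ± 0.08, edgeR adjusted p = 3.77e-05; -0.36 and not called without OVA 1). The whole T cell list of 15 genes summed to 66.9 to 103 CPM in IgG1 cells and 97.5 to 119 CPM in the others, and Cd3e, Cd8a, Trbc1, Trbc2, Bcl11b and Il7r had 0 UMIs in every sum. Of these 15 genes, 2 passed the filter on low counts. Apoe, which encodes a lipid carrier protein and was named after its values were seen, was at 293, 473 and 212 CPM against 381, 598 and 238 CPM, lower within every library (log2 fold -0.30 ± 0.05, edgeR adjusted p = 3.00e-05; -0.26 and not called without NP 1). The 16 myeloid markers summed to 170 to 226 CPM in IgG1 cells and 184 to 256 CPM in the others, with Itgam at 0 UMIs, and their part in the Apoe difference was not tested.

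Memory and naive B cell genes gave 5 rises and 0 falls among 23 tested (21.7%, beside 0.426% higher over all genes; median 0.22). These were Fcer2a, described above, with Ccr6, Klf2, Ly6d and, named after its values were seen, Vpreb3 (log2 fold 0.22 ± 0.06; 0.16 without NP 2 and 0.14 without OVA 1, not called in either). Klf2, a factor of resting and recirculating lymphocytes, was at 9.29, 14.9 and 25.3 CPM against 7.93, 13.6 and 7.52 CPM, so it differed chiefly in OVA 1. Ccr6, the chemokine receptor of naive and memory B cells, was at 2.93, 1.86 and 16.6 CPM against 1.23, 2.24 and 4.05 CPM, with the same pattern. Their log2 folds were 0.86 ± 0.19 (edgeR adjusted p = 0.00288) and 1.51 ± 0.34 (edgeR adjusted p = 0.00331), and Klf2 was at 0.17 and not called without OVA 1, while Ccr6 then failed the filter on low counts. The median of the list was 0.27, 0.20 and 0.04 without NP 1, NP 2 and OVA 1, with 5, 4 and 1 genes called. Not every gene of the list followed, and 9 of the 23 had a negative log2 fold. Cd38, high on memory and naive cells, was at 9.29, 8.68 and 13.9 CPM against 15.3, 16.7 and 16.2 CPM, lower in each library, and did not pass (log2 fold -0.54 ± 0.19, edgeR adjusted p = 0.187).

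Cells with transcripts of at least 2 of 5 memory or naive cell markers, Cd38, Ccr6, Klf2 and S1pr1 among them, made up 1.55%, 2.37% and 7.67% of IgG1 cells in NP 1, NP 2 and OVA 1 and 2.17%, 2.67% and 3.23% of other IgG cells, so that OVA 1 again stood out. Without these cells, an analysis added after the data were seen, 77 genes were called, 75 of them among the 93. Vpreb3, Ly6d and Fcer2a were still called (log2 folds of 0.23, 0.28 and 0.36), Klf2 was not (1.12, edgeR adjusted p = 0.087), and Ccr6 had too few counts.

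Zone genes moved little. Of 32 tested light zone genes, where cells test their receptors on antigen, 2 rose and 0 fell (6.25%, beside 0.426% higher over all genes; median 0.07). These were Lmo2, given above, and Il9r, the IL-9 receptor chain, at 6.84, 7.44 and 54.0 CPM against 4.58, 2.59 and 38.6 CPM (log2 fold 0.57 ± 0.16, not called without NP 1 at 0.56, NP 2 at 0.49 or OVA 1 at 0.96). Of 19 dark zone genes, where cells divide, 1 rose and 1 fell (10.5%, beside 0.944% called over all genes, median -0.10). Gpr174, a lysophosphatidylserine receptor, rose (log2 fold 1.30 ± 0.32), and Cdca8 fell. Gpr174 was not called without NP 2 (1.23) or OVA 1 (1.05). Cxcr4, the dark zone chemokine receptor, and the light zone markers Cd83 and Cd86 had log2 folds of -0.23 ± 0.09, 0.06 ± 0.05 and 0.04 ± 0.07, none past the test.

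Tnf, Ltb and Lta, cytokine genes of the tumour necrosis factor family named after their values were seen, were each called higher, whereas Cd70 and Tnfsf9 of the same family were called lower. Tnf was at 84.6, 34.1 and 49.1 CPM against 66.0, 23.3 and 39.1 CPM (log2 fold 0.38 ± 0.10). Ltb, the membrane-bound partner of lymphotoxin alpha, was at 686, 912 and 1087 CPM against 637, 772 and 985 CPM (log2 fold 0.16 ± 0.05). Lta was at 235, 197 and 231 CPM against 162, 135 and 245 CPM, higher in the NP libraries and not in OVA 1 (log2 fold 0.28 ± 0.06). None of the 3 was called in all settings that left out 1 library: Tnf was called in none (0.39, 0.34 and 0.41 without NP 1, NP 2 and OVA 1), and Ltb (0.17) and Lta (0.54) only without OVA 1.

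Several gene groups gave no call in edgeR. Over all genes, 9.64% had an unadjusted p under 0.05, with 4.90% higher and 4.73% lower. DESeq2 left the adjusted p undefined for 7829 of the 9849 genes, so its 0 calls add little where that was so. Of 76 nuclear-encoded genes of oxidative phosphorylation, 0 were called by edgeR or DESeq2 and 0 had an unadjusted p under 0.05 (median log2 fold -0.01). The 52 ribosomal protein genes gave 0, 0 and 0 in the same order (median 0.01). The 24 antigen presentation genes gave 0 calls by either tool (median 0.08). At an unadjusted p of 0.05, 7 of the 24 were higher, a larger share than the 4.90% over all genes. The 17 plasma cell genes gave 0 calls by either tool and 1 lower at an unadjusted p of 0.05. Lists of glycolysis, apoptosis, Toll-like receptor signalling, mitochondrially encoded respiration and genes next to the heavy-chain locus also gave 0 calls by either tool, with 2, 3, 2, 0 and 1 genes at an unadjusted p of 0.05. The 21 germinal center factors gave 0 calls by either tool and 4 at an unadjusted p of 0.05, and among them Bcl6, the master factor, had a log2 fold of 0.02 ± 0.08.

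The low-count genes with the largest folds rested on few cells. Dqx1 was at 7.82, 0.620 and 10.8 CPM in IgG1 cells and 3.17, 1.38 and 0.193 CPM in the others (53 UMIs against 27), and 1 clone gave 45.3% of its IgG1 UMIs. Its log2 fold of 2.08 ± 0.39 was 0.90 and not called without OVA 1, and it was named after its values were seen. The uncharacterised 3830403N18Rik (log2 fold 2.46 ± 0.46) had 37 UMIs against 17, and the largest clone gave 27% of the former. It was not called without OVA 1 (1.92). Sdc4, the proteoglycan syndecan 4, was at 3.42, 3.10 and 10.2 CPM against 0.528, 1.73 and 3.28 CPM (log2 fold 1.61 ± 0.39), and was not called without NP 1 (1.42) or OVA 1 (1.56). Ass1, the arginine synthesis enzyme argininosuccinate synthase, had more counts (137 against 152 UMIs) and was at 9.29, 19.8 and 25.9 CPM against 7.22, 10.7 and 9.45 CPM (log2 fold 1.03 ± 0.19, edgeR adjusted p = 4.56e-05; 0.67 and not called without OVA 1).

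A second fit of 12 sums set IgG1 against each other subclass alone, over 9162 genes. The 3 contrasts share the IgG1 sums, and their calls are not independent. Against IgG2b 2 genes were called (0.0218%), both higher in IgG1 cells: Parm1 (log2 fold 0.90 ± 0.15) and Bmyc (0.58 ± 0.10). Against IgG2c 2 were called (0.0218%), also both higher: Parm1 (1.41 ± 0.18) and Ly6d (0.88 ± 0.10). Against IgG3 1 was called (0.0109%), Slpi (1.11 ± 0.19). DESeq2 called 0, 2 and 0 genes, and at an unadjusted p of 0.05 edgeR gave 567, 622 and 518.

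Parm1 was lowest in IgG2c cells among the 4 subclasses in every library, at 10.6, 19.2 and 18.6 CPM in NP 1, NP 2 and OVA 1. In IgG2b cells it was at 25.7, 21.3 and 22.8 CPM, in IgG3 cells at 23.2, 24.5 and 27.2 CPM and in IgG1 cells at 36.4, 43.6 and 47.0 CPM. IgG1 was the highest of the 4 in each library, but IgG1 over IgG3 did not pass (log2 fold 0.76 ± 0.18, edgeR adjusted p = 0.17). The neighbours IgG2b and IgG3 did not differ beyond their error (-0.14 ± 0.20). IgM cells, which had not switched, were at 19.4, 14.3 and 9.03 CPM.

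Slpi stood at 119, 140 and 188 CPM in IgG1 cells, 152, 76.7 and 114 CPM in IgG2b cells, 90.9, 110 and 183 CPM in IgG2c cells and 58.6, 65.4 and 76.2 CPM in IgG3 cells. IgG3 was the lowest of the 4 in every library, and IgM cells were lower still, at 34.5, 45.5 and 46.5 CPM. The order above it varied, and IgG1 exceeded IgG2b and IgG2c without passing the test (log2 folds 0.42 ± 0.15 and 0.25 ± 0.15).

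Ly6d, a surface marker of B-lineage precursors and naive B cells, split the subclasses differently. It was at 62.5, 107 and 121 CPM in IgG2c cells, 109, 177 and 210 CPM in IgG2b cells, 100, 172 and 272 CPM in IgG1 cells, 127, 208 and 253 CPM in IgG3 cells and 229, 278 and 560 CPM in IgM cells. IgG2c was lowest and IgM highest in all 3 libraries. IgG1 did not differ from IgG2b (log2 fold 0.13 ± 0.09) or IgG3 (-0.16 ± 0.10) beyond the threshold, whereas IgG2b exceeded IgG2c by 0.75 ± 0.10 (edgeR adjusted p = 0.000176) and IgG2c lay below IgG3 (-1.04 ± 0.11, edgeR adjusted p = 6.92e-07). The summed difference between IgG1 and the other IgG cells (0.28 ± 0.07; 0.07 without OVA 1) thus combined unlike subclasses, and this contrast among IgG2b, IgG2c and IgG3 was looked at after its values were seen. The order of IgG1, IgG2b and IgG3 changed between libraries.

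**Figure D3:**
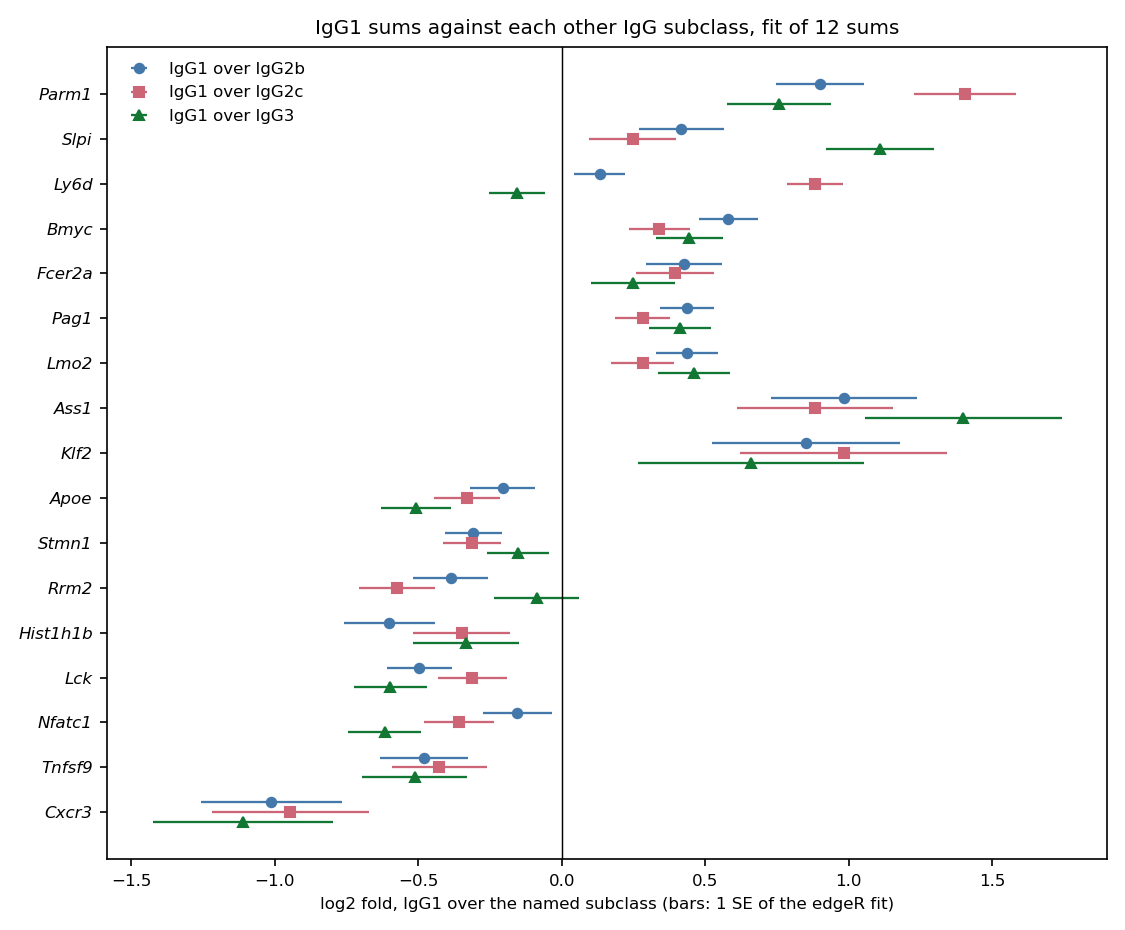
Log2 fold of IgG1 sums over the IgG2b (circles), IgG2c (squares) and IgG3 (triangles) sums for 17 genes, with bars of 1 SE from the edgeR fit. Cxcr3 lies near -1 and Parm1 above 0.7 against each subclass, whereas Ly6d lies at 0.88 against IgG2c and at -0.16 against IgG3.

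Whether the IgG1 difference was the same in both immunizations was tested as an interaction on the 6 sums, which leaves 1 residual degree of freedom. edgeR called 17 of 10195 genes (0.167%), of which 9 (0.0883%) had a higher and 8 (0.0785%) a lower log2 fold in OVA 1, and DESeq2 called 0, with 9 at an unadjusted p of 0.05. Klf2 had a log2 fold of 0.17 in the NP libraries and 1.75 in OVA 1 (difference 1.58 ± 0.39, edgeR adjusted p = 0.0324). Lta ran the other way, at 0.54 and -0.09 (difference -0.62 ± 0.12, edgeR adjusted p = 0.00128). With 1 cell per clone, without IGHV1-72 cells or without cells of clones of at least 8 cells, edgeR called 0 genes, with 538, 476 and 514 at an unadjusted p of 0.05, and the cause was not tested.

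**Figure D4:**
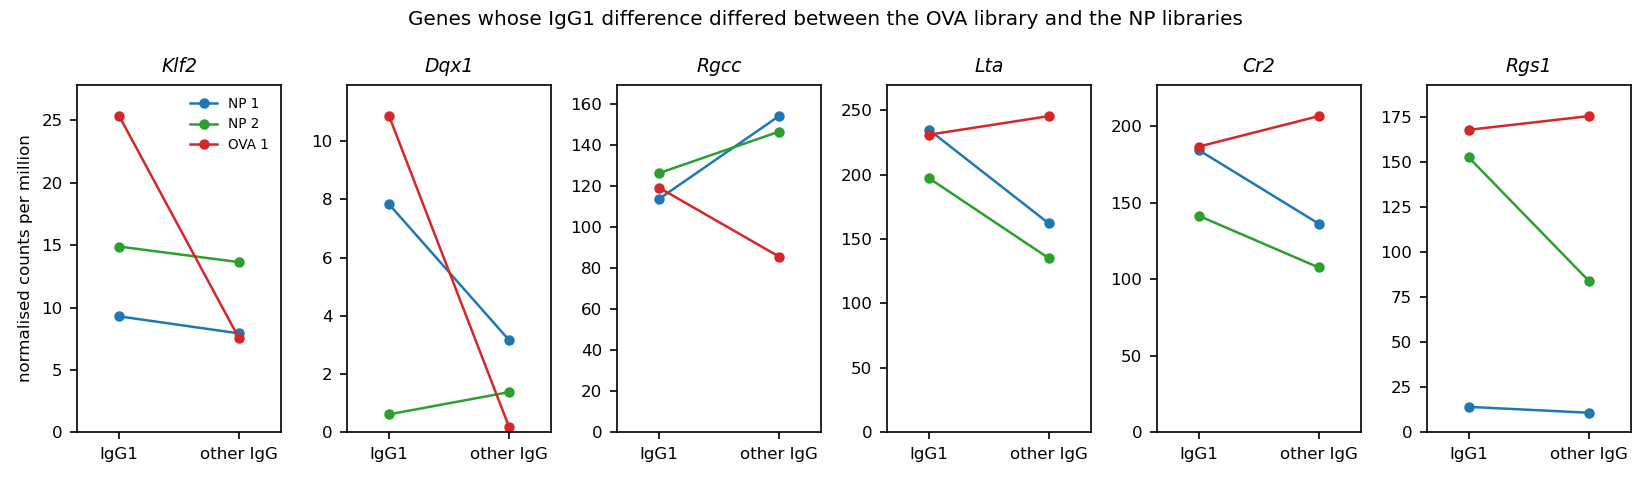
Level in CPM (linear vertical axis from 0) of 6 genes whose difference between IgG1 (left) and other IgG cells (right) was called different in OVA 1 and the NP libraries, 1 line per library. Klf2 stands at 25.3 in IgG1 cells of OVA 1 and at 14.9 or less in the other 5 sums, and Lta is higher in IgG1 cells at 235 and 197 in the NP libraries but not at 231 against 245 in OVA 1.

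The antigen receptors of the arms were compared within each library. IGHV1-72, the V gene behind the canonical C57BL/6 antibody to NP, encoded the heavy chain of 64.7% (58.6 to 70.6) of IgG1 cells and 59.5% (55.6 to 63.3) of other IgG cells in NP 1, and of 63.9% (56.2 to 71.1) and 66.6% (62.7 to 70.2) in NP 2. Lambda light chains, its usual partners, were carried by 78.7% and 73.6% in NP 1 and by 79.3% and 81.6% in NP 2. Each pair of intervals overlaps, and the direction differed between the 2 libraries. A tyrosine codon at the fourth CDR3 position was read in 63.5% (55.7 to 70.8) of IGHV1-72 IgG1 cells and 74.4% (69.7 to 78.7) of other IGHV1-72 cells in NP 1, and in 74.1% (64.8 to 82.0) and 66.0% (61.3 to 70.5) in NP 2, so here too the direction turned. The mean CDR3 length was 13.9 amino acids in IgG1 cells and 14.1 in other IgG cells of NP 1, and 14.6 and 14.0 in NP 2. Overlapping intervals do not show that the arms were the same.

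In OVA 1 the arms differed in V genes picked here after their values were seen; cells of 1 clone are not independent, so these intervals are too narrow. IGHV5-17 took 7.95% (5.39 to 11.2) of IgG1 cells and 2.85% (1.60 to 4.65) of the others, and IGHV1-18 took 7.95% (5.39 to 11.2) and 1.14% (0.419 to 2.46). IGHV2-5 took 3.01% (1.51 to 5.33) and 13.3% (10.5 to 16.5), and IGHV1-72 took 3.01% (1.51 to 5.33) and 14.2% (11.4 to 17.5). Large clones lay behind part of this, since 1 clone gave 17 of the 29 IGHV5-17 IgG1 cells and another 39 of the 75 IGHV1-72 cells of the other arm, while the 29 IGHV1-18 IgG1 cells came from 15 clones. Cells of clones seen at least 2 times were 52.6% (47.3 to 57.8) of IgG1 cells and 67.2% (63.0 to 71.2) of other IgG cells in OVA 1, against 51.6% and 44.9% in NP 1 and 43.8% and 44.1% in NP 2.

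Over the 3 libraries no receptor measure differed between the arms beyond the spread between libraries. The mean difference of IgG1 minus other IgG was -2.87 ± 8.24 percentage points (SD, n = 3) for IGHV1-72, 0.89 ± 3.80 for lambda chains and -2.74 ± 10.8 for cells of repeated clones, and -0.02 ± 0.48 amino acids for CDR3 length. Exact 2-sided sign-flip permutation tests gave p of 0.75, 1, 0.75 and 1 for these 4 measures, where the smallest p that 3 libraries allow is 0.25, so this design cannot pass 0.05.

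**Figure D5:**
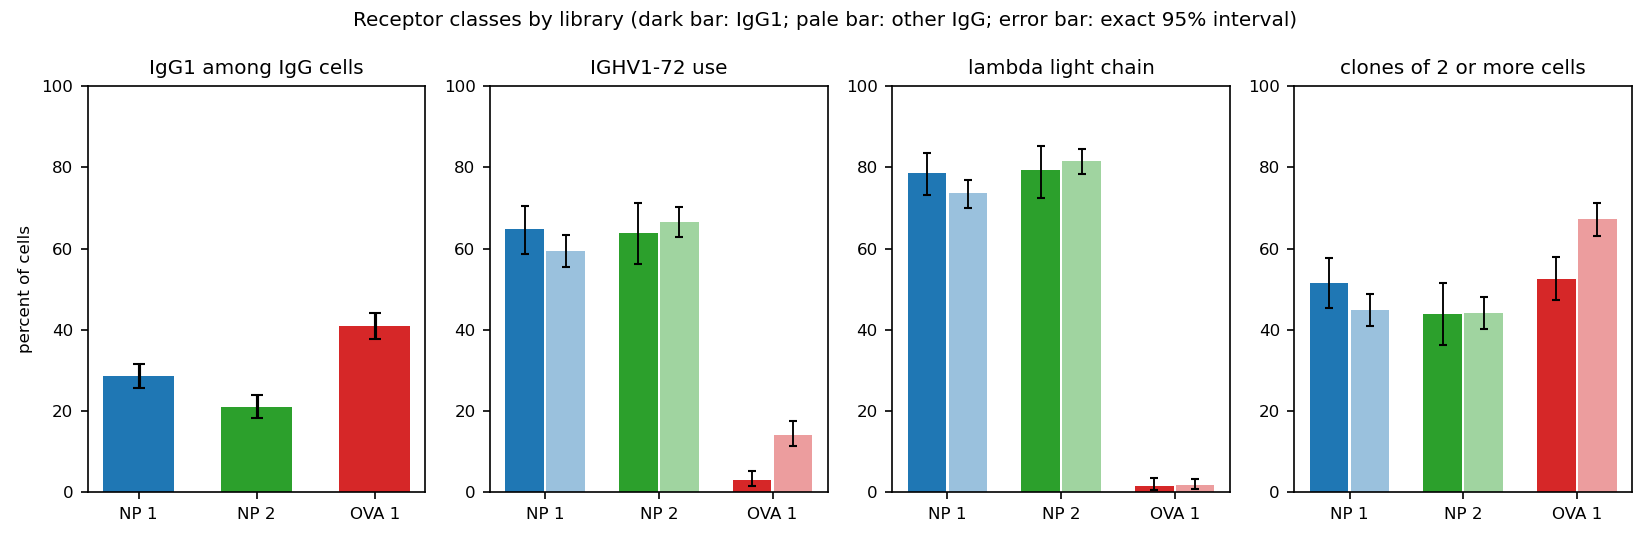
Share in percent of cells, from 0 to 100, of IgG1 among IgG cells (left panel) and, in IgG1 (dark bars) and other IgG cells (pale bars), of IGHV1-72 use, lambda light chains and membership in a clone of at least 2 cells, by library, with exact 95% intervals. The arms lie close in the NP libraries, and in OVA 1 they stand apart for IGHV1-72 (3.01% against 14.2%) and for repeated clones (52.6% against 67.2%).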

How the data were processed

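Single-cell 5' gene expression and immunoglobulin libraries of mouse spleen germinal center B cells were analysed; 16 bulk heavy-chain libraries were not used. The deposited gene table holds raw UMI counts per gene and cell, and the deposited contig tables hold UMI counts, V, J and constant gene calls per contig. Cell Ranger and build mm10 are named per the submitters' processing notes; no version or cell filter is stated in the sources used here. Filters, arms and clones (same library, V gene, J gene and CDR3 nucleotides) are defined in the report; 225 immunoglobulin genes were removed, and cells with a second heavy-chain class (3 IgG1 cells per library and 8, 8 and 3 others) stayed in. No doublet caller was run.

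Counts were summed per library and arm (at least 20 cells per sum) and tested with edgeR 4.0.16 (TMM, filterByExpr, quasi-likelihood, library as block, Benjamini-Hochberg) in R 4.3.3; DESeq2 1.42.0 was the alternative. Both arms come from the same library, and their deviations from the arm means correlated within libraries (0.58, 0.50 and 0.65), so library is a true pairing. SE was taken as |log2 fold|/√F. CPM of single genes are scaled by TMM, and summed CPM of gene lists are not. The 6 sums leave 2 residual degrees of freedom, and edgeR borrows spread across genes. The procedure was tested on simulated data.

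The arms, the 28 gene lists (721 genes) and the tests were chosen with earlier results of these data known. Named genes are up to 15 per direction of largest fold with 1 sign in all 3 libraries, every called member of the switching signal lists, up to 4 of every other list, and a fixed panel; any other is said to be chosen after its values were seen. Gene positions, promoters and names came from RefSeq GRCm38.p6 (13455 symbols matched). NK cell markers (8 genes) had 0 tested members, and the 3 tested erythroid markers gave 0 calls by edgeR or DESeq2 and 0 at an unadjusted p of 0.05. DESeq2 left the adjusted p undefined for most genes in this contrast. MYC targets gave 1 gene lower of 35 tested (2.86%, Hspd1), beside 0.518% lower over all genes. Immediate early genes gave 1 higher of 15 tested (6.67%, Zfp36), beside 0.426% higher over all genes. Some genes that the naming rule selects are not reported here.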

Additional observations from a re-analysis of the deposited data

Results flagged for a closer look

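Genes whose IgG1 difference was called different between OVA 1 and the NP libraries by edgeR are given as the log2 effect in OVA minus that in NP. The difference was 1.58 for Klf2, 0.81 for Rgcc and 4.71 for Dqx1, each relatively higher in IgG1 cells of OVA 1. It was -0.62 for Lta, -0.85 for Rgs1 and -0.56 for Cr2, which encodes complement receptor 2, each relatively higher in IgG1 cells of the NP libraries. Rgs1, an inhibitor of chemokine receptor signalling, was at 14.2, 153 and 168 CPM in IgG1 cells of NP 1, NP 2 and OVA 1 and at 10.9, 84.2 and 176 CPM in the others, so the level in NP 1 stood apart in both arms. Of the 53 Dqx1 UMIs in IgG1 cells, 1 clone gave 45.3%. These calls rest on 1 OVA library, and DESeq2 called 0 of the 17 genes.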

How the results depend on the processing

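The 93 genes called between IgG1 and other IgG cells became 9 with DESeq2, 3 with cells thinned to 2500 UMIs, 59 with single-chain cells, 9 with heavy chains of at least 5 UMIs, 28 with 1 cell per clone and class, 38 without IGHV1-72 cells, 3 in cells low in G2 and M transcripts and 7 without cells holding other cell type markers; the range without 1 library was 46 to 56. With RLE factors it was 91, with no count filter 98, and at most 5% mitochondrial UMIs 62. Without the library pairing as a block, edgeR called 0 genes in this contrast (112 unadjusted) and 0, 0 and 0 against IgG2b, IgG2c and IgG3 (93, 127 and 166 unadjusted). Against IgG2b the 2 calls became 0 with DESeq2, thinning, 1 cell per clone or no IGHV1-72 cells, 1 at 5% mitochondrial UMIs, 3 with RLE factors, 3 without other markers, 5 with single chains, 22 without large clones, 40 without a count filter and 0 to 25 without 1 library. Against IgG2c the 2 became 25 without a filter, 4 with single chains, 5 with 1 cell per clone, 14 without IGHV1-72, 6 without other markers and 3 in several settings, and 2 to 5 without 1 library. Against IgG3 the 1 became 0 with DESeq2 or thinning, 38 without a filter, 4 with single chains, 4 with heavy chains of at least 5 UMIs, 2 with 1 cell per clone, 2 without IGHV1-72, 12 in cells low in G2 and M transcripts, 6 without other markers, 3 without large clones, 4 without memory-marker cells and 0 to 27 without 1 library. The 17 interaction calls became 0 with DESeq2, thinning, 1 cell per clone, no IGHV1-72 or no large clones, 8 at 5% mitochondrial UMIs, 4 with single chains, 10 with heavy chains of at least 5 UMIs, 4 in cells low in G2 and M transcripts, 3 without other markers and 10 without memory-marker cells. In the cells low in G2 and M transcripts the log2 fold turned to 0.012 for Kif18a, 0.31 for Hist1h2ae, 0.33 for Hist1h1e, 0.22 for Hist1h2ap, 0.012 for Lig1 and 0.25 for Pclaf. The cause was not tested. Settings without large clones or memory-marker cells were chosen after seeing the data. The setting without other markers left out cells with 2 or more of them. These made up 47.3% (IgG1 cells of NP 2) to 60.7% (other IgG cells of OVA 1) of each arm, so its sums held far fewer cells. Lck, 1 of these markers, was detected in 307 of 792 IgG1 and 880 of 1808 other IgG cells. Few UMIs limit Csf2rb, Cd70 and Dqx1, and 45 IgG3 cells limit OVA 1.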
